A study of Rattus norvegicus with 4 samples.

Results

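Igf1, Igfals, Apoa1 and Ttr encode proteins that hepatocytes secrete into plasma. They were chosen by symbol: every probe with a single gene symbol equal to one of these 4, after updating through the Entrez ID. Earlier results of these data were known when the 4 genes were chosen. Each gene had 1 probe, so the set comprised 4 probes of 1936 and 4 genes of the 958 named on the array. The livers came from male Sprague-Dawley rats of 250 to 300 g, whose age the labels do not state. The treated rats received 75 mg/kg of alpha-naphthylisothiocyanate (ANIT, which injures bile duct cells) intraperitoneally in olive oil, and the control rats received olive oil alone. The right lateral lobe was taken after 18 h, RNA of 3 rats per treatment was pooled, and poly(A) RNA of both pools was hybridised together to 4 spotted cDNA arrays. Arrays 1 and 3 had ANIT in Cy5, and the dyes were swapped on arrays 2 and 4.

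IGF-1 is the hormone through which growth hormone acts on many tissues, and liver is its main source in the circulation. Growth hormone drives Igf1 and Igfals in hepatocytes through the growth hormone receptor, JAK2 and STAT5b. The Igfals product, the acid-labile subunit, binds IGF-1 together with an IGF binding protein and keeps the complex in blood. Apoa1 encodes apolipoprotein A-I, the main protein of high-density lipoprotein, and Ttr encodes transthyretin, which carries thyroxine and, with retinol binding protein, retinol. In inflammation the liver makes more of the positive acute phase proteins and less of several other plasma proteins, transthyretin among them.

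RefSeq promoter windows of the GRCr8 assembly matched 3 of the 4 genes. They are shown because STAT5 binds a defined element, the GAS motif, whose letters can be looked for. The 250 bases before the listed transcript start are chr7:24172282-24172531 for Igf1, chr10:14403600-14403849 for Igfals and chr18:12218508-12218757 for Ttr, each on the + strand. They are printed 5′ to 3′, with every motif match in capitals.
Igf1: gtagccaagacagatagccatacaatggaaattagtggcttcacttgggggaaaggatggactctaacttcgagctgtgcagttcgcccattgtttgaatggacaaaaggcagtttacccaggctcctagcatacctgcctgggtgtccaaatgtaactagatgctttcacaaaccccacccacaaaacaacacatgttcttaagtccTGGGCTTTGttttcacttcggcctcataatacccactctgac
Igfals: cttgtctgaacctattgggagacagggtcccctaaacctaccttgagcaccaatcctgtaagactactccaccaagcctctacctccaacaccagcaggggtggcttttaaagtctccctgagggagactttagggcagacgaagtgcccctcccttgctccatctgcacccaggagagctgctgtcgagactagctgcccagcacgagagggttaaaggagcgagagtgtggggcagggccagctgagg
Ttr: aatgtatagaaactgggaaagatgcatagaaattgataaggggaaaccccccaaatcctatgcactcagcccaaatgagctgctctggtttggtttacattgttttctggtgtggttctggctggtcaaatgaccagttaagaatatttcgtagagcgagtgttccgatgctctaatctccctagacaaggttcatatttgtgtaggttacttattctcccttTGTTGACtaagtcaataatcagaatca
The GAS motif TTCNNNGAA, searched on both strands, was in 0 of these 3 windows and in 7.52% of the 27457 windows of that length. The same held for the C/EBP-type motif TTGCNNAA (9.20% of all windows), the HNF1-type motif GTTAAT (6.46%) and the TATA box TATAAA (13.1%). The HNF4-type motif CAAAGNCCA (1.48% of all windows) had 1 match, in Igf1, on the opposite strand and 42 to 34 bases before the start. The FOXA-type motif TGTTNAC, added after the values were seen, had 1 match, in Ttr, 27 to 21 bases before the start, and was in 8.97% of all windows. No match overlapped another. Other transcripts of the genes can start elsewhere, so absence of these letters says only that they are not in these windows.

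The 4 arrays repeat the hybridisation of the same pools, so they are 1 replicate of the treatment, for which no test could be made. The ratios are described as ANIT over olive oil on the log2 scale. That direction is likely, because titles carry the name ANIT and the labels put ANIT in channel 2, but the table states neither direction nor log base. With the sign turned, each value below would have the same size and the opposite sign. Most probes changed side with the dye. Array medians as deposited were -0.53 and -0.53 with ANIT in Cy5 and 0.85 and 0.83 with ANIT in Cy3, and Pearson's r across probes was 0.958 to 0.979 within a dye orientation and -0.383 to -0.370 between orientations. Values are therefore given both as deposited and centred on each array's median, and arrays were averaged within each orientation and then over both. Centring lowers every such mean by 0.15. The error given is the SD between arrays of the same orientation, pooled over both (n = 4 arrays), which covers hybridisation and not animals, and the number of arrays limits the precision.

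Of the plasma carrier genes, Apoa1 was lowest. As deposited, its log2 ratio was -0.65, -0.52, -0.42 and -0.53 on arrays 1 to 4. All 4 arrays lay below 0, with both dye orientations in the same range. The mean was -0.53 ± 0.11 as deposited (1.44-fold lower in the ANIT pool) and -0.68 after centring (1.61-fold lower). Ttr had -0.13, -0.061, -0.070 and 0.054 on the same arrays. Arrays 1 to 3 lay slightly below 0 and array 4 slightly above it. Its mean was -0.051 ± 0.073 as deposited, smaller than the SD between arrays, and -0.20 after centring (1.15-fold lower). Whether Ttr lay below 0 by more than this SD thus depended on the centring.

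Of the IGF axis genes, Igfals had -0.53, -0.24, -0.51 and -0.36 on arrays 1 to 4. All 4 values were below 0, and both arrays with ANIT in Cy5 were lower than both with ANIT in Cy3. The mean was -0.41 ± 0.053 as deposited (1.33-fold lower) and -0.56 after centring (1.48-fold lower). Igf1 had -0.38, -0.35, -0.24 and -0.26. These values too were all below 0, and the dye orientations overlapped. The mean was -0.31 ± 0.086 as deposited (1.24-fold lower) and -0.46 after centring (1.38-fold lower). The SD over all 4 deposited arrays was 0.066 for Igf1, 0.076 for Ttr, 0.094 for Apoa1 and 0.13 for Igfals, against a median of 0.72 over the 958 genes. That SD includes the difference between dye orientations, which was small for these genes. It does not show better agreement of repeated arrays. The SD within an orientation was above the gene median of 0.068 for Igf1 (0.086), Apoa1 (0.11) and Ttr (0.073). Only Igfals (0.053) was below it.

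**Figure D1:**
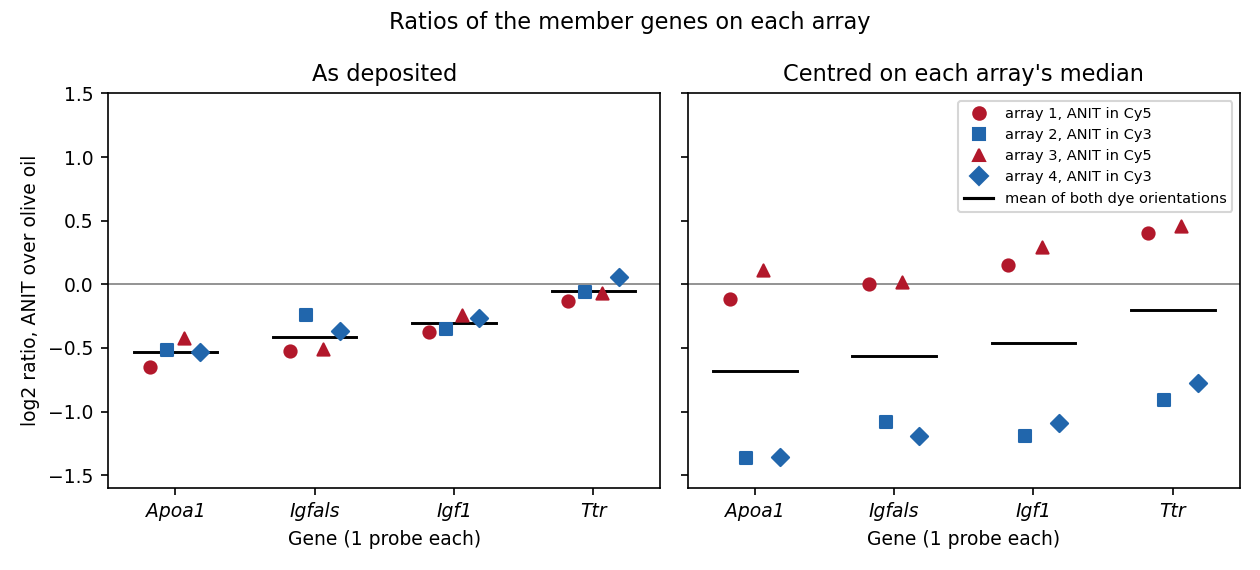
Log2 ratio of ANIT over olive oil (vertical axis) for the 4 genes on each array, as deposited (left) and centred on each array's median (right); red symbols are arrays with ANIT in Cy5, blue ones with ANIT in Cy3, and bars are means of both orientations. As deposited, all arrays of Apoa1, Igfals and Igf1 lie below 0, while after centring the arrays of opposite dye part by more than 1.

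On the centred values the dye orientations of these genes separated. Apoa1 had -0.12 and 0.11 with ANIT in Cy5 against -1.37 and -1.36 with ANIT in Cy3, and the other 3 genes were above 0 on both centred arrays with ANIT in Cy5. The medians subtracted had opposite signs in the dye orientations, whereas the deposited ratios of these 4 probes were nearly the same in both. Their difference between orientations, ANIT in Cy5 less ANIT in Cy3, was -0.0018 for Igf1, -0.0091 for Apoa1, -0.095 for Ttr and -0.22 for Igfals. The median over all genes was -1.24, within a range from -3.19 to 0.24. All 4 genes were in the quartile of genes with the highest differences, from -0.47 upward.

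A gene was counted as lower where its centred mean was at least 1.5-fold lower and every centred array was below 0. By this rule 0 of the 4 genes were counted, against 2.19% of all genes (21 of 958). On the centred mean without a rule on signs, Apoa1 was 1 of 26 genes at least 1.5-fold lower (2.71%), and with signs read on the deposited arrays it was 1 of 23 (2.4%). On the mean as deposited, 0 of the 4 reached 1.5-fold lower, against 15 of all genes (1.57%). Deposited values below 0 on every array were found in 3 of the 4 genes (Apoa1, Igfals and Igf1) and in 46 of all 958 (4.8%). That share depended on the dye difference: it was 0 of 240 genes in the quartile with the most negative differences and 37 of 240 (15.4%) in the quartile that held these 4. Ranked from the lowest centred mean, which centring does not reorder, Apoa1 was number 20, Igfals 29, Igf1 48 and Ttr 124 of 958. Thus 12.9% of all genes lay at or below Ttr, against 2.09% for Apoa1. Because the 4 genes were chosen with earlier results known, the shares and ranks here and below describe them and test nothing.

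The typical ratio was itself larger at higher dye differences, with a median of 0.054 as deposited in the lowest quartile of genes and 0.25 in the highest. The 4 genes were therefore also set against the 100 genes closest to each in dye difference, a comparison chosen after seeing the data. Apoa1 then stood at -0.79 relative to the local median, Igfals at -0.71, Igf1 at -0.56 and Ttr at -0.37. Of the 100 neighbours, 3 lay at or below Apoa1, 6 at or below Igfals, 11 at or below Igf1 and 20 at or below Ttr. By this measure all 4 genes were lower than by median centring, and Apoa1 had the fewest neighbours at or below it. As deposited, Apoa1 (-0.53) lay below the 5th percentile of its neighbours (-0.35). Igfals (-0.41), Igf1 (-0.31) and Ttr (-0.051) lay above theirs (-0.57, -0.36 and -0.33), inside the range of their neighbours.

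**Figure D2:**
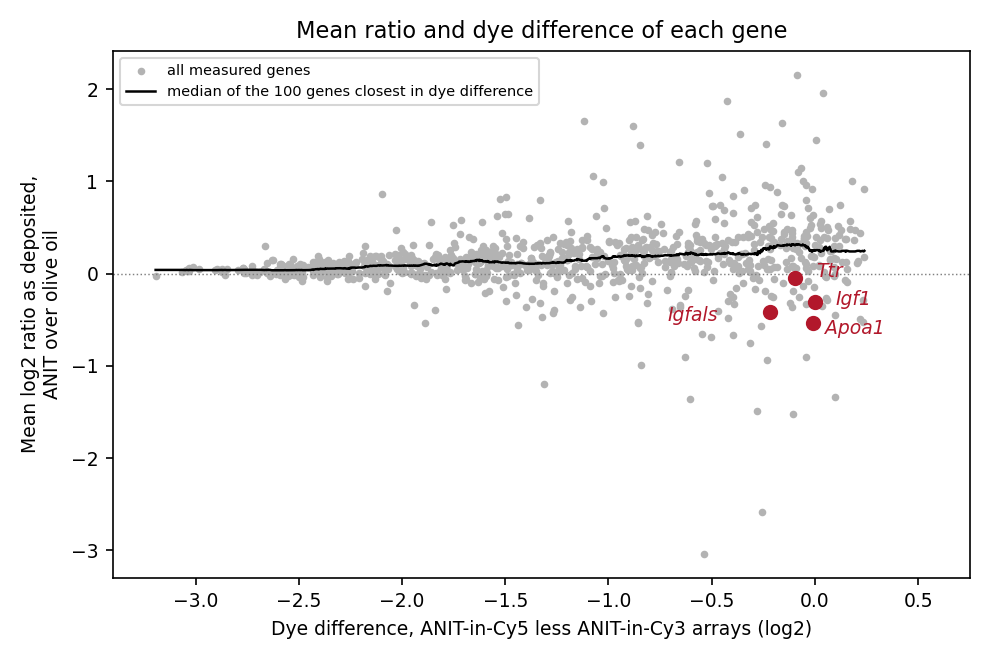
Mean log2 ratio as deposited (vertical axis) against the difference between dye orientations (horizontal axis) for all 958 genes, with the running median of the 100 nearest genes as a line. The spread of the ratios widens to the right, where the 4 red genes sit between -0.22 and -0.0018 on the horizontal axis and below the line.

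The order of the 4 genes was examined through 6 differences between them within each array, which no centring can alter. Ttr was above each of the others on all 4 arrays. Its ratio exceeded that of Apoa1 by a mean of 0.48 (Apoa1 less Ttr, -0.48 ± 0.11), with arrays from -0.59 to -0.35. Igfals less Ttr was -0.36 ± 0.12 and Igf1 less Ttr was -0.26 ± 0.043. Igf1 was above Apoa1 on all 4 arrays, by 0.22 ± 0.066. The other neighbours in the order, Igf1 with Igfals and Igfals with Apoa1, did not differ beyond the spread between arrays. Igf1 less Igfals was 0.10 ± 0.12 and Igfals less Apoa1 was 0.12 ± 0.12, each with 1 array of opposite sign.

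**Figure D3:**
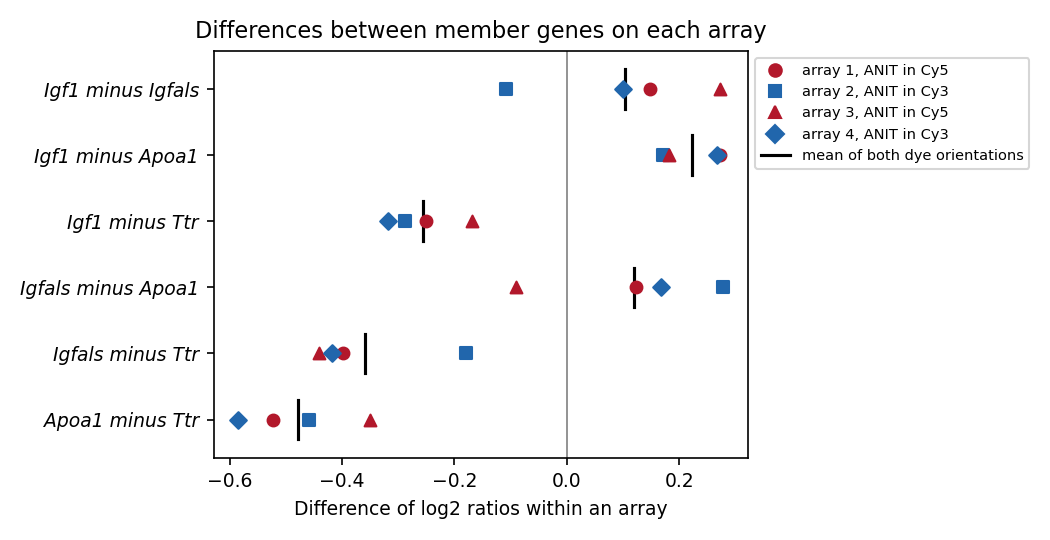
Differences of log2 ratios between pairs of the 4 genes within each array (horizontal axis), with symbols for the 4 arrays and a bar for the mean of both dye orientations. The 3 pairs with Ttr lie below 0 on every array, and the pairs of Igfals with Igf1 and with Apoa1 straddle 0.

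The rest of the IGF and growth hormone pathway lay close to the other genes. Of a list of 32 genes, 16 were measured, and of the 14 besides Igf1 and Igfals, 0 were counted as lower and 0 as higher (1.5-fold with the sign on every centred array; all genes, 2.19% lower and 3.55% higher). None of these 14 was below 0 on every array as deposited, and their median centred ratio was -0.061, against -0.040 over all 958 genes. However, none of the 14 lay in the quartile of highest dye differences, which holds Igf1 and Igfals. In the other quartiles only 0%, 0.42% and 3.35% of genes were below 0 on every array, against 15.4% in that quartile. A count of 0 was therefore the rule among genes with such dye differences. The lowest was Igfbp4, an IGF binding protein gene, at -0.34, whose arrays disagreed (-0.75, 0.16, -0.88 and 0.74 as deposited). Igfbp3, whose product forms the circulating complex with IGF-1 and the acid-labile subunit, had -0.049, and Igfbp1, which insulin lowers in liver, had -0.040. The growth hormone receptor gene Ghr had -0.085, Stat5b, the transcription factor that carries the growth hormone signal, -0.14, and the kinase gene Jak2 -0.022. At the upper end were the growth factor gene Igf2 (0.015), the insulin receptor substrate gene Irs1 (0.049) and Igfbp2 (0.072), whose 2 probes differed (0.32 and -0.17). The dye difference of Ghr was -2.09 and that of Stat5b -0.84. In the quartile of genes to which Ghr belongs, up to -1.96, the centred means had an SD of 0.092 over genes, against 0.51 in the quartile of Igf1. Ratios near 0 therefore were the rule among probes with dye differences like that of Ghr, and the part this plays in the Ghr value was not tested. In the quartile of Stat5b the SD was 0.39, so this did not hold there.

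Among 7 measured genes of a list of growth hormone dependent and male liver genes (19 genes), the carbonic anhydrase gene Car3, which male rats express strongly in liver, was the lowest and was 1 of 1 counted as lower. It had -2.71, -2.43, -2.72 and -2.48 as deposited and a centred mean of -2.74. Igf1 and Igfals followed. The other 4 measured genes ran from -0.15 for the female-type cytochrome P450 gene Cyp2c12 to 0.15 for Cyp2c22, and the list median without Igf1 and Igfals was -0.11. The probes of Cyp2c12, like those of other P450 genes, may share sequence with related genes, which was not tested.

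The list of plasma proteins known to be lowered in inflammation or with less growth hormone action (20 genes) had 8 measured members, including these 4. The other 4 had a median of -0.13, and 0 were counted in either direction. Tf, the iron carrier transferrin, had -0.16, 0.15, -0.23 and 0.059 as deposited (centred mean -0.20), so its sign followed the dye. Pon1, the paraoxonase carried on high-density lipoprotein, also had -0.20. Its sign followed the dye too, with -0.67, 0.51, -0.59 and 0.54 as deposited. Gc, the vitamin D binding protein gene, had -0.068, and Apoa4, a further apolipoprotein gene, 0.18. The probes of Apoa4 disagreed (-0.11 and 0.46). No other measured gene of this list was below 0 on all arrays as deposited.

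Among 9 measured genes of high-density lipoprotein and other lipoproteins (21 listed), Apoa1 was the lowest. The other 8 had a median of -0.067, and 0 were counted. Pon1 was next, followed by Scarb1, the receptor that takes up cholesterol from high-density lipoprotein, at -0.13. The deposited sign of both Pon1 and Scarb1 followed the dye. At the other end stood the hepatic lipase gene Lipc at 0.40, Apoa4, and Apoe at -0.030. Apoe had 0.092, 0.038, 0.30 and 0.059 as deposited. It thus had a dye difference near 0 (0.15), as Apoa1 did, and lay above 0 where Apoa1 lay below.

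Of 7 measured genes of thyroid hormone and retinol transport and response (21 listed), Ttr was the lowest and the retinaldehyde dehydrogenase gene Aldh1a1 the highest (0.90), which was counted as higher. The retinoic acid receptor gene Rarb had -0.16, the retinoid X receptor gene Rxra -0.065, the thyroid hormone receptor gene Thra 0.010 and Rara 0.015. Without Ttr the list median was -0.023.

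The positive acute phase proteins lay on the other side. Of 10 measured genes (21 listed), 3 were counted as higher and 0 as lower, against 3.55% and 2.19% of all genes. As deposited, 6 were above 0 on all arrays, against 18.9% of all genes (181 of 958). These 6 were all in the quartile of highest dye differences, where the median ratio as deposited was 0.25. The share above 0 on all arrays within that quartile was not computed. Orm1, which encodes the plasma protein alpha-1-acid glycoprotein, had 1.49, 1.67, 1.61 and 1.74 as deposited, with a dye difference of -0.16. Lbp, the lipopolysaccharide binding protein gene, had a centred mean of 1.29 and the fibrinogen gamma chain gene Fgg 0.79. The lowest were Serpina1 (-0.13), the complement gene C3 (-0.12) and A2m (-0.10). The list median was 0.28. Orm1 and Lbp thus lay on the opposite side of 0 from Apoa1, Igfals and Igf1 on every array as deposited. The deposited sign of Serpina1, C3, A2m and the C-reactive protein gene Crp followed the dye.

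Among 10 measured genes of the cytokine signalling that drives the acute phase (19 listed), Stat3, the transcription factor downstream of interleukin-6, was the 1 gene counted, as higher (1.25). The interleukin-1 receptor gene Il1r1 had 0.56 and Cebpd, a C/EBP transcription factor gene, 0.41. The glucocorticoid receptor gene Nr3c1 was the lowest at -0.40. Its 3 probes ran from -0.59 to -0.23, and its deposited sign followed the dye (-0.84, 0.36, -0.83 and 0.32). Next were the interleukin-6 receptor subunit gene Il6st (-0.11), the cytokine gene Il1b (-0.105) and the other subunit gene Il6r (-0.095). Of 8 measured liver transcription factor genes (23 listed), Nr0b2, the repressor SHP, was counted as higher (1.36) and Nr1h4, the bile acid receptor FXR, as lower (-0.68). Nr2f2 had -0.45 and its relative Nr2f1 -0.14, and the nuclear receptor gene Rara had 0.015. The deposited sign of Nr2f2, Nr2f1 and Rara followed the dye. The medians of these lists were 0.0052 and -0.067.

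**Figure D4:**
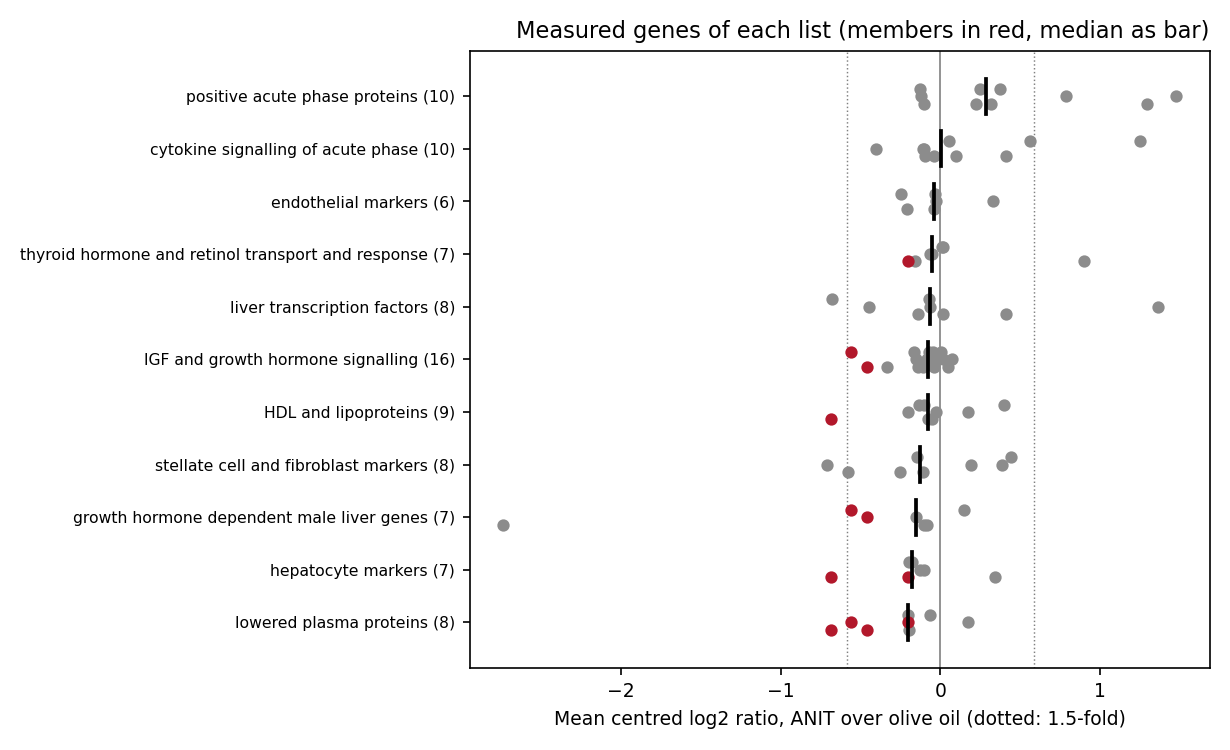
Mean centred log2 ratio (horizontal axis) of every measured gene in the 11 lists with at least 5 measured genes; red points are Igf1, Igfals, Apoa1 and Ttr, bars are list medians, and dotted lines mark 1.5-fold. Positive acute phase proteins have the highest median (0.28) and the plasma protein list that holds all 4 genes the lowest (-0.20). These 4 are part of that list's 8 measured genes, so they help set its median. Without them it is -0.13, near that of the stellate cell and fibroblast list (-0.13).

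Ratios carry no level, so the presence of hepatocyte markers could not be read from this table. Of 15 hepatocyte markers 7 were measured, and the 5 besides Apoa1 and Ttr had a median of -0.13, with Tf at -0.20, Cyp2e1 at -0.18, Serpina1 at -0.13, Apob at -0.10 and the gluconeogenesis gene Pck1 at 0.34. In liver tissue, fewer hepatocytes and less RNA of these genes per hepatocyte cannot be told apart. Markers of other cells were described in the same way. None of the 8 stellate cell and fibroblast genes was counted (median -0.13). Ngfr (-0.71, arrays from -1.31 to 1.16 as deposited), Col1a1 (-0.58, probes -0.38 and -0.77) and Timp2 (-0.26) were lowest. The deposited sign of Col1a1 and Timp2 followed the dye. Mmp14 (0.44), Fn1 (0.38) and Vim (0.19) were highest. Of 6 endothelial genes 0 were counted (median -0.038), from Kdr (-0.25), Cdh5 (-0.21) and Tek (-0.038) to Icam1 (0.33), Tie1 (-0.030) and Vcam1 (-0.037). Among the neutrophil and macrophage markers Spp1 had -0.12, Fcgr2b -0.0012 and S100a9 0.038. Of the cholangiocyte markers, Ggt1 had -0.097, Aqp1 -0.0077 and Clu 0.34, and Spp1 belongs to both lists. Spp1, S100a9, Ggt1 and the endothelial gene Tek had dye differences of -2.66, -2.13, -2.77 and -2.23. All were in the lowest quartile of dye differences, where centred means had an SD of 0.092 over genes. Ratios near 0 were the rule there, and the part this plays in these marker values was not tested. Hprt1 and Actb, spotted as housekeeping genes, had 0.086 and 0.040. The part that cell composition plays in the ratios of the 4 genes was not tested.

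The genes most like each of the 4 were taken as those at the smallest Euclidean distance over the 4 centred arrays, which share both RNA pools. For Igf1 these were Tspo, a mitochondrial membrane protein gene (distance 0.068, mean -0.48), the organic anion transporter gene Slc22a8 (0.11, mean -0.45) and the pseudogene Eif5-ps6 (0.12, mean -0.47). For Igfals they were Slc10a1, the bile acid uptake transporter of hepatocytes (0.17, mean -0.51), Cyp4f4 (0.27, mean -0.47) and again Eif5-ps6 (0.31). For Apoa1 they were the splicing factor gene Prpf6 (0.24, mean -0.67), the microsomal glutathione transferase gene Mgst1 (0.30, mean -0.64) and Cyp4f1 (0.33, mean -0.60). For Ttr they were Abcc2, the canalicular export pump MRP2 (0.10, mean -0.23), Cyp2f4 (0.13, mean -0.25) and the pyruvate dehydrogenase kinase gene Pdk2 (0.16, mean -0.18). Slc10a1 rested on 2 probes that lay close together (-0.54 and -0.48), and its deposited values ran from -0.43 to -0.29 over the 4 arrays.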

How the data were processed

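The 4 genes and all gene lists were chosen with earlier results of these data known. The authors deposited 1 log ratio per probe and array, read here as log2. How it was corrected for background and normalized, its log base and its direction are not stated in the labels. The table was read as already turned to ANIT over olive oil on all 4 arrays, a reading settled on earlier results, because the largest ratios keep their sign under both dye orientations.

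Of 1936 probes, 1432 had 1 gene symbol, 19 had several (0 of them with one of the 4 genes) and 485 were not listed in the annotation. Symbols were updated through Entrez identifiers to RefSeq (GRCr8), which matched 1429 probes. The probe annotation names no build, so no coordinates of probes or gene bodies are given, and the promoter windows carry those of RefSeq's GRCr8. Arrays were centred on their medians, probes averaged per gene, and arrays averaged by dye orientation and then over both orientations. No test was made, since the arrays are technical repeats of 1 pair of pools. The counting rule was checked on simulated data with changes of 2-fold and with dye differences shuffled over genes. That check did not cover smaller changes, such as those of these 4 genes. Named genes were the 4 genes, the 3 lowest and 3 highest of lists with 5 or more measured genes, every gene of shorter lists, the 3 nearest genes to each of the 4, and Hprt1 and Actb. Further genes of these lists (Igfbp1, Igfbp3, Ghr, Stat5b, Jak2 and others) were added after their values were seen. Alternatives were other centrings, readings of sign and log base, probe and array summaries, single dye orientations, left-out arrays, other size limits and sign rules. Python 3.11.15, numpy 2.4.6, pandas 2.3.3 and matplotlib 3.10.9 were used.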

Additional observations from a re-analysis of the deposited data

Results flagged for a closer look

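In the hepatocyte list, array 3 stood apart for Pck1, a gluconeogenesis gene, with a centred value of 0.80. Arrays 1, 2 and 4 had 0.25, 0.17 and 0.16. Of 73 named genes, this was the 1 with such a gap. Chance gives a gap of this kind in about 1 in 20 sets of 4 like arrays, but these arrays form dye pairs. As deposited, Pck1 had -0.29, 1.01, 0.27 and 0.99 on arrays 1 to 4, so array 3 lay between the others. None of Igf1, Igfals, Apoa1 and Ttr had such a gap. Their centred arrays parted by dye, so no single array could stand apart in this way.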

How the results depend on the processing

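The reading of the table and the place of 0 mattered most. As deposited, Igf1, Igfals, Apoa1 and Ttr had -0.31, -0.41, -0.53 and -0.051, and as natural logs -0.66, -0.81, -0.99 and -0.29. Read as a dye ratio, all turned above 0 (0.68, 0.58, 0.68 and 0.64). On centred arrays with ANIT in Cy5 alone they had 0.22, 0.012, -0.0039 and 0.43, and with ANIT in Cy3 alone -1.14, -1.14, -1.36 and -0.84. Igfals had -0.63 with centring on Hprt1 and Actb. Against the 100 genes closest in dye difference, added after seeing the data, Igf1 had -0.56, Igfals -0.71 and Ttr -0.37. Leaving out each array gave -0.49 to -0.43 for Igf1, -0.59 to -0.54 for Igfals, -0.74 to -0.63 for Apoa1 and -0.24 to -0.17 for Ttr. The median over arrays moved none of the 4 by more than its SD between arrays. Taking the probe with the smallest SD could not move them, since each of the 4 genes had 1 probe.

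Of the 4 genes, 0 were counted as lower, but 2 (Igfals and Apoa1) with centring on Hprt1 and Actb and 4 with ANIT in Cy3 alone. Apoa1 alone was counted (1 gene) with the sign of each orientation's mean, with the sign of the deposited arrays or with no sign rule, both of the latter added after seeing the data. Leaving out each array counted 0 to 1, the 1 being Apoa1 without array 3. Over all genes 21 were lower and 34 higher. Lower genes numbered 32 with centring on Hprt1 and Actb, 67 as a dye ratio, 36 as natural logs, 139 and 129 with ANIT in Cy5 or Cy3 alone and 11 at 2-fold. Higher genes numbered 125 as a dye ratio, 183 with ANIT in Cy5 alone and 12 at 2-fold. As deposited, 15 were lower and 50 higher. Leaving out each array gave 22 to 26 lower and 33 to 36 higher. The cause of these movements was not tested. No paired analysis was possible because the result comes from no test. Spot brightness was not analysed here, so its limit on each ratio is unknown.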
